A study of Mus musculus with 135 samples.

Results

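Nuclear-encoded subunits of the mitochondrial respiratory chain were described in mouse oocytes and in fetal germ cells. Members were chosen by gene symbol (Nduf followed by a, b, c, s or v and a number, Sdha to Sdhd, Uqcr, Cox4 to Cox8 and Atp5, without names marked as pseudogenes). This gave 88 of 53715 genes in the oocyte count tables, 40 for complex I, 4 for complex II, 8 for complex III, 19 for complex IV and 17 for complex V, and 83 of 19004 genes in the germ cell table. Of the 88, 76 reached 1 CPM, a count scaled by its library total, in at least 2 sets of oocytes and were tested, among them 35 of complex I, 4 of complex II, 7 of complex III, 13 of complex IV and 17 of complex V. The 12 that did not reach it were Ndufa11b, Ndufa4l2, Ndufb4c, Ndufc1, Ndufs6b, Uqcrc1, Cox4i2, Cox6a2, Cox7a1, Cox7b2, Cox8b and Cox8c. A few names stand for proteins outside the complex of their name: Ndufa4 protein is now placed in complex IV, and Atp5s encodes a coupling factor.

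The study compared wild type (WT) mice with mice lacking Tet1 or Tet2, genes for dioxygenases that oxidise 5-methylcytosine in DNA. All mice were of the C57BL6/129 strain background. Single ovulated metaphase II oocytes were sequenced, and the 94 used here came in 13 sets that the labels name: 4 sets from young WT mice (38 oocytes), 2 from young Tet1-/- mice (15), 2 from young Tet2-/- mice (16), 2 from old WT mice (12), 2 from old Tet1-/- mice (6, of which 1 set is a single oocyte) and 1 from old Tet2-/- mice (7). Young meant 2 to 4 months of age and old 10 to 12 months. Germ cells purified at E13.5, that is, from embryos at mid-gestation, gave 1 WT and 1 Tet2-/- library, each from a pool of 4 to 6 embryos. The knockouts are written Tet1KO and Tet2KO below. Each set counted as 1 replicate; whether a set came from 1 mouse is not in the labels, and p-values measure only how sets spread.

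The respiratory chain sits in the inner mitochondrial membrane. Complex I and complex II pass electrons from NADH and succinate to ubiquinone, complex III passes them on to cytochrome c, complex IV reduces oxygen, and complex V uses the resulting proton gradient to make ATP. Complex II is encoded by the nucleus alone, whereas the other complexes also hold subunits made from mitochondrial DNA. The mature oocyte carries a large store of mitochondria and of maternal messenger RNA and makes little new transcript.

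Total counts ran from 2354503 to 12472307 per oocyte, with a median of 3985321. Tet1 stood at 0 to 0.05 CPM in the 4 Tet1KO sets and at 1.15 to 4.61 CPM in the other 9. Reads outside a deleted part still count for a gene, and Tet2 stood at 1.18 to 1.30 CPM in the 3 Tet2KO sets against 0.97 to 4.76 CPM elsewhere. The 12 oocyte markers (among them Zp3 and Gdf9) were all detected in each group and summed to 8138 to 27733 CPM per oocyte, whereas 13 cumulus and granulosa cell markers summed to at most 90.6 CPM and 4 globin genes to at most 0.57 CPM. In oocyte 6 of the old Tet2KO set S161, 9 macrophage markers summed to 1828 CPM, against 57.8 CPM or less in every other oocyte of that set. Where stated below, the part of oocyte 6 in a result was measured by leaving it out. The 3 oocytes numbered 10, 11 and 15 of the young WT set Young_WT__246 carried 4469, 8353 and 5377 CPM of cytosolic ribosomal protein transcripts, and no other oocyte was above 2711 CPM. The changes between groups that turn on these 3 are also given without them, and levels that turn on their set without that set.

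Subunit transcripts made up a small share of the oocyte's transcripts. Over the 94 oocytes the 88 members summed to between 2360 and 6837 CPM, with a median of 2878 CPM. The 3 oocytes named above had the highest sums, 5312, 6837 and 5694 CPM, and the remaining 91 lay between 2360 and 4380 CPM. By set, the sums were 2902, 2904, 2770 and 3767 CPM in the young WT sets T148, T211, T231 and Young_WT__246, 2763 and 3086 CPM in the young Tet1KO sets T146 and Young_Tet1-/-_201, and 2911 and 2641 CPM in the young Tet2KO sets T213 and T214. The old WT sets Old_WT_247 and Old_WT_365 stood at 2853 and 3591 CPM, the old Tet1KO sets Old_Tet1-/-_209 and Old_Tet1-/-_315 at 3120 and 2715 CPM, and S161 at 2867 CPM. Set Young_WT__246 was high and the groups overlapped. The 13 subunits encoded by mitochondrial DNA summed to more, 5027 to 16875 CPM per set.

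**Figure D1:**
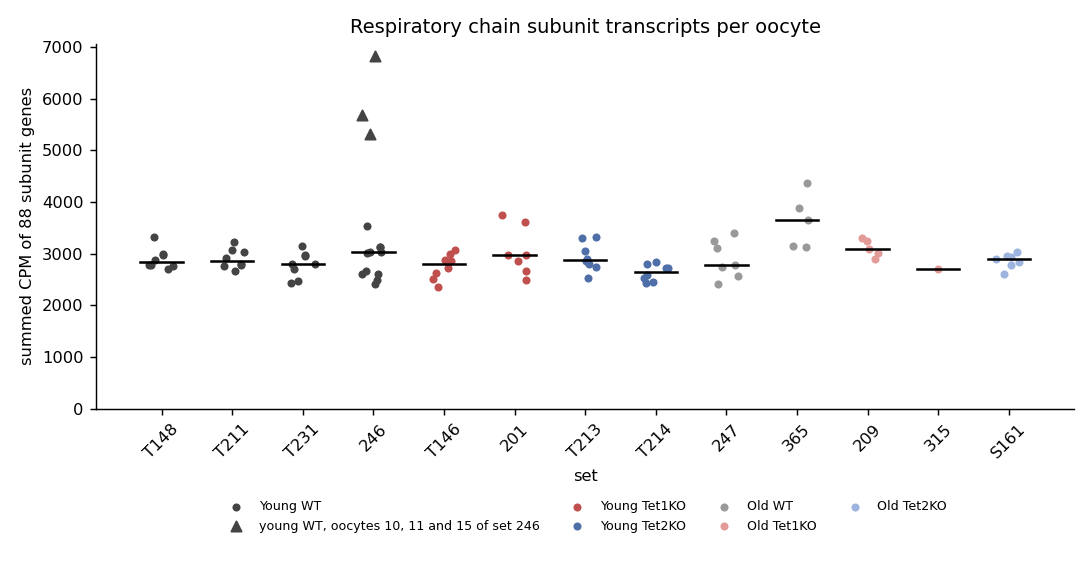
Summed CPM of the 88 subunit genes (y axis) in each of 94 oocytes, by set (x axis) and coloured by group; bars are set medians. Triangles mark oocytes 10, 11 and 15 of set Young_WT__246, at 5312, 6837 and 5694 CPM, above the 4380 CPM that no other oocyte exceeded.

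A few genes carried most of this sum. In the young WT sets Atp5b gave on average 17.9% of the members' counts, Uqcrc2 13%, Ndufa10 8.53%, Sdha 7.88% and Cox8a 6.26%, together 53.6%. These 5 genes made up 42.8% to 60.3% of the members' counts over the 13 sets, with the lowest share in Young_WT__246. Most other subunits of the same complexes were far lower, and the levels below are given per length, as TPM, which divides by gene length, with mean ± SD over the 4 young WT sets. Leaving out Young_WT__246 moved the mean of 10 of the 76 tested members by more than 1.5-fold, and those named are given both ways.

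Complex I takes electrons from NADH. Its most abundant transcripts per length were Ndufa10, an accessory subunit, at 195 ± 10.0 TPM (SD, n = 4), and Ndufa4 at 189 ± 64.7 TPM (SD, n = 4). These were followed by Ndufa1, at 132 ± 73.4 TPM, and Ndufb6, at 118 ± 14.2 TPM, both accessory subunits of the membrane arm (SD, n = 4). Several transcripts of the catalytic core were low: Ndufv1, which binds NADH, stood at 1.72 ± 0.39 TPM, Ndufs1 at 2.57 ± 0.73 TPM and Ndufs7 at 2.89 ± 0.41 TPM (SD, n = 4). Ndufb5, an accessory subunit, stood at 5.34 ± 2.09 TPM (SD, n = 4), and shares exon bases with Mrpl47. Over all complexes 27 members share exon bases with another gene. Overlapping reads were counted, and their part in the levels and changes of such members was not tested. The lowest tested member was Ndufb7, at 0.71 ± 1.02 TPM (SD, n = 4), or 0.20 TPM without Young_WT__246. The median of the 35 tested members was 10.7 TPM.

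Complex II, succinate dehydrogenase, showed a gap between its subunits in every oocyte. Sdha, the flavoprotein that oxidises succinate, stood at 143 ± 45.8 TPM, and Sdhb, the iron-sulphur subunit it works with, at 2.65 ± 0.67 TPM (SD, n = 4). The membrane anchors Sdhc and Sdhd lay between them, at 51.3 ± 7.55 TPM and 26.1 ± 4.21 TPM (SD, n = 4). Over all 94 oocytes 93229 counts fell on Sdha and 933 on Sdhb, and the TPM ratio of Sdha to Sdhb ran from 36.3 to 124 over the 13 sets. Sdha was above Sdhb per length in 94 of 94 oocytes.

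In complex III the 2 core proteins diverged further. Uqcrc2, core protein 2, stood at 389 ± 18.98 TPM (SD, n = 4) and between 322 and 440 CPM in every set. Uqcrc1, core protein 1 and its partner in the assembled complex, reached 0.26 ± 0.08 TPM (SD, n = 4). Its highest set was S161, at 1.54 CPM with oocyte 6 included. The tables hold 173696 counts for Uqcrc2 over the 94 oocytes. Uqcrfs1, the Rieske iron-sulphur protein, stood at 15.6 ± 0.95 TPM, Uqcrh at 40.8 ± 13.3 TPM and Uqcrq, the lowest tested member, at 11.4 ± 10.3 TPM (SD, n = 4), or 6.21 TPM without Young_WT__246. Uqcrc2 shares exon bases with Pdzd9.

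Complex IV had the most abundant subunit transcript of all, Cox8a, at 893 ± 302 TPM, followed by Cox6a1 at 519 ± 344 TPM (SD, n = 4). Without Young_WT__246 Cox8a stood at 748 TPM and Cox6a1 at 348 TPM. Both encode small nuclear subunits around the catalytic core made in the mitochondrion. The lowest tested members were Cox7b, at 10.3 ± 8.99 TPM, and Cox7c, at 13.1 ± 18.4 TPM (SD, n = 4). Without Young_WT__246 these stood at 5.85 and 3.87 TPM, with Cox7c below Cox7b in each of the other 3 sets. Cox4i1, the widely expressed isoform of subunit 4, stood at 29.98 ± 17.7 TPM and Cox5a at 112 ± 20.6 TPM (SD, n = 4).

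Several subunits of complex IV have a tissue-restricted paralog. Cox6b2, known as the testis form of subunit 6B, was above the common form Cox6b1 in oocytes: 205 ± 104 TPM against 70.5 ± 25.6 TPM in young WT (SD, n = 4). Cox6b2 stood at 69.97, 70.6, 59.5 and 171 CPM in T148, T211, T231 and Young_WT__246, and Cox6b1 at 18.3, 16.7, 13.47 and 32.6 CPM. Their TPM ratio ran from 1.43 to 3.73 over the 13 sets, and Cox6b2 was the higher per length in 93 of 94 oocytes. The other restricted isoforms were near 0: Cox7b2 and Cox8b had no count in 94 oocytes, Cox7a1 had 9, Ndufa4l2 had 12, Cox8c had 105, Cox4i2 had 120 and Cox6a2 had 278.

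Complex V, ATP synthase, was led by Atp5b, the catalytic beta subunit, followed by other parts of its soluble head and central stalk. Atp5b stood at 319 ± 51.4 TPM, Atp5c1, the gamma subunit, at 90.7 ± 7.31 TPM and Atp5a1, the alpha subunit, at 74.5 ± 18.9 TPM (SD, n = 4). The proton-carrying c subunit is encoded by 3 genes, of which Atp5g2 stood at 13.1 ± 5.74 TPM, Atp5g3 at 2.62 ± 0.39 TPM and Atp5g1 at 2.53 ± 0.49 TPM (SD, n = 4). Atp5k, a small subunit of the membrane part, stood at 42.01 ± 47.9 TPM, or 18.1 TPM without Young_WT__246, and Atp5s was lowest at 1.23 ± 1.27 TPM (SD, n = 4).

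The same genes were more even in WT germ cells at E13.5, where 1 library was measured. For the 74 members tested in oocytes and listed at 1 FPKM (read fragments per length and depth) or more in WT germ cells, the SD of the log2 TPM was 2.27 in young WT oocytes and 1.22 in the germ cells. The highest over the lowest member of complex I differed 275-fold in oocytes and 9.74-fold in germ cells, and that of complex II 53.9-fold and 2.54-fold. For complex III the ratios were 34.2 and 6.26, for complex IV 86.3 and 13.4, and for complex V 258 and 208.9, with Atp5s lowest in both. Without Young_WT__246, and with Cox7c and Atp5j as the lowest of complex IV and V, the oocyte ratios were 969, 56.2, 61.98, 193 and 293 for complex I to V. Both oocyte ratios of complex I rest on Ndufb7, a gene near the floor, with 7, 8 and 13 counts in T148, T211 and T231. It reached 1 CPM only in Young_WT__246 (4.34 CPM) and S161 (1.32 CPM, with oocyte 6 included). The 969 therefore keeps a gene that would not be tested without Young_WT__246. Without members that have close copies complex IV gave 36.4 in oocytes and 7.80 in germ cells, and with the gene lengths of the germ cell table complex V gave 429 in oocytes. Uqcrc1 was listed at 222 FPKM and Uqcrc2 at 112 FPKM in WT germ cells, Sdha at 157 FPKM and Sdhb at 107 FPKM, and Cox6b2 at 87.6 FPKM against 196 FPKM for Cox6b1. Cox7a1, with 9 counts in all oocytes, stood at 59.1 FPKM there. Over the 74 members the Spearman correlation of the 2 cell types' levels was 0.23, a description across genes that share a library.

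**Figure D2:**
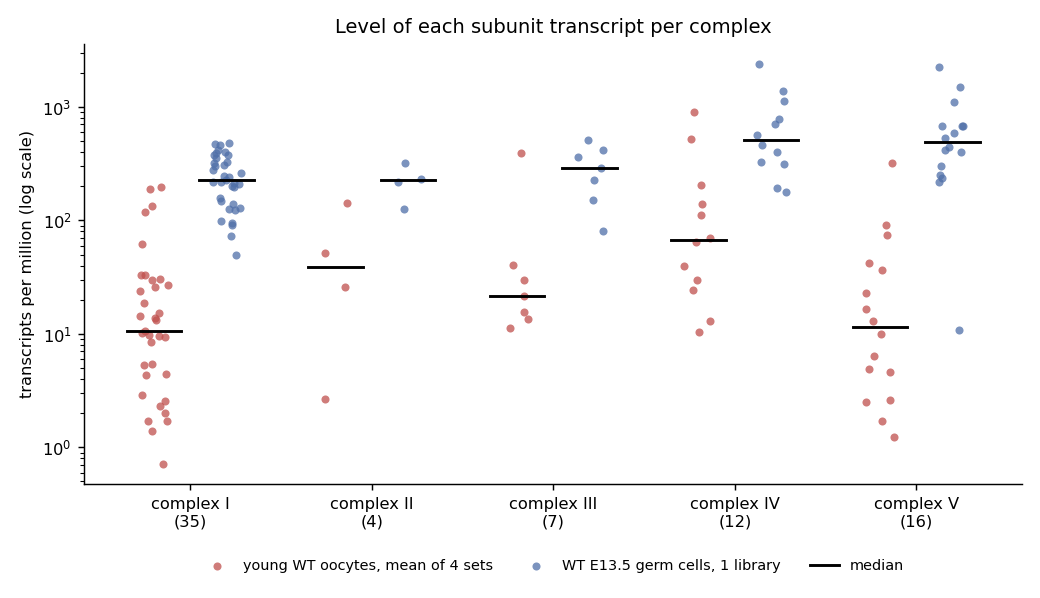
Level of each subunit transcript in TPM (log y axis) for the 74 members measured in both cell types, by complex (x axis, number of members in brackets). Red points are means of 4 young WT oocyte sets, blue points the WT germ cell library and bars medians; the oocyte points spread over a wider range in every complex.

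The 2 cell types were sequenced from different kinds of library, processed separately and scaled on other gene lengths, so levels set across them were not tested. With the gene lengths of the germ cell table the SD of the log2 oocyte levels was 2.12. Counting kept reads of mapping quality 30 or more, which may lose reads of genes with near-identical copies. Of 84 members with a coding sequence, 20 had at least 1 other transcribed gene or pseudogene that matched 80% or more of it at 95% identity or more. Among the 74 members, the median oocyte level was 16.1 TPM for the 54 with no such copy and 17.5 TPM for the 20 with one, and the SD without the latter was 2.53. Sdhb, Uqcrc1, Uqcrc2, Cox6b1 and Cox6b2 had none. Cox7b and Cox7c had 2 each and Atp5k had 1, so their oocyte levels may miss reads, which was not tested.

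Promoter sequences are shown for Sdha and Sdhb and for Cox6b1 and Cox6b2, pairs with unlike oocyte levels. Cox6a1 is added because its level differed between sets. The windows come from RefSeq (GRCm38.p6, the mm10 assembly), which held 66 of the 88 members. Uqcrc2 was not among them, so its pair with Uqcrc1 is not shown. For each gene the stretch is given that lies before its first annotated exon and outside exons of its neighbours, 5′ to 3′ on the gene's strand. Capitals mark matches to the NRF1 motif, the letters GCGCA and GCGC with any 1 base between them, read on both strands. NRF1 is a transcription factor known to act on many respiratory chain genes.
Sdha (chr13:74350281-74350308, minus strand, the gap to the exons of Ccdc127): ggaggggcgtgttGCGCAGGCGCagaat
Sdhb (chr4:140961021-140961202, plus strand): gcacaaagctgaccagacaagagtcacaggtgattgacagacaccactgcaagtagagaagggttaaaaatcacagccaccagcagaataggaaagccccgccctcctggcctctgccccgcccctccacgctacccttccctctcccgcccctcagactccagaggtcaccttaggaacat
Cox6b1 (chr7:30626152-30626364, minus strand): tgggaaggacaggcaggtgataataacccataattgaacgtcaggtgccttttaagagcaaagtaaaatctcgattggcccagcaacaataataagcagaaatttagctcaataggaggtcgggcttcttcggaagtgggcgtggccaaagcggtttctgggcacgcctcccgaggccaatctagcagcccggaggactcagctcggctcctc
Cox6b2 (chr7:4753095-4753225, minus strand): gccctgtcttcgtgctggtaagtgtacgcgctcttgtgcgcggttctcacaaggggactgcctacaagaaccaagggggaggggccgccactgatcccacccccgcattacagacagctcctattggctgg
Cox6a1 (chr5:115348982-115349129, minus strand): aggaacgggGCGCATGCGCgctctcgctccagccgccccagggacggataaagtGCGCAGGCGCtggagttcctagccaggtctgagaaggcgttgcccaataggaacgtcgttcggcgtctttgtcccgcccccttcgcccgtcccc

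In the 250 bases upstream of the RefSeq start, 13 of 66 members (19.7%) held the NRF1 motif, against 4.23% of 27025 genes with a window. The ETS motif CCGGAAG, also read on both strands, was in 12 of 66 members (18.2%) against 7.83% of all. Matches of one motif were counted whether or not they overlapped the other. Sdha held 3 NRF1 matches and Cox6a1 held 2, whereas Sdhb, Uqcrc1, Cox6b1 and Cox6b2 held none. Matches did not follow level throughout: the abundant Atp5b, Cox8a and Ndufa10 held none, and Ndufb4, at 6.64 TPM without Young_WT__246, held 3. Uqcrc2 had no window and could not be searched. Cox6b1 and Cox6a1 each held 1 ETS match. Any link between matches and level was not tested. A match is a stretch of letters and not a measured binding site.

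Loss of Tet1 in young oocytes changed no member past the threshold of an adjusted p of 0.05 (edgeR's quasi-likelihood test, Benjamini-Hochberg over 14418 genes), where 3 genes in all (0.0208%) passed. Of the 76 members 50 had a fitted log2 change below 0, against 49.6% of all genes, and the median was -0.26 against 0.00 for all genes. At an unadjusted p under 0.05, 4 members were lower and 1 was higher, against 4.79% of all genes. The members' own values by complex were uneven: 23 of 35 of complex I, 0 of 4 of complex II, 3 of 7 of complex III, 10 of 13 of complex IV and 14 of 17 of complex V were lower.

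Ndufb5 had the smallest p in young Tet1KO. It stood at 9.02, 8.60, 16.6 and 8.35 CPM in the young WT sets and at 5.94 and 4.11 CPM in the Tet1KO sets. Both Tet1KO sets were below all 4 WT sets for this and 5 further members (Atp5e, Cox5b, Cox7a2l, Ndufa10 and Ndufb2; 6.96% of all genes) and above them for Atp5d, Ndufa1, Sdhc and Sdhd (4.33% of all genes). For Ndufb5 the fitted log2 change of -0.93 (SE 0.32) had an adjusted p of 0.967 in edgeR's test. Atp5k stood at 3.76, 4.68, 4.64 and 30.1 CPM in WT and 3.51 and 4.50 CPM in Tet1KO. The WT values reach so high through Young_WT__246 alone, and the fitted change was -1.14 (SE 0.45; edgeR adjusted p = 0.967). Sdhc, at 77.8, 56.8, 59.7 and 73.4 CPM in WT, stood at 86.2 and 108 CPM in Tet1KO, above every WT set. Its log2 change was 0.51 (SE 0.22; edgeR adjusted p = 0.967). Cox6b2 (-0.63, SE 0.29) and Uqcrq (-0.92, SE 0.48) had the smallest p of complex IV and III and did not pass either (edgeR adjusted p = 0.967 for both).

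Cox6a1 was high in 1 set of each of these genotypes. It stood at 89.2, 94.3 and 103 CPM in the T-named young WT sets and at 93.2 CPM in the T-named Tet1KO set. In the young sets named by number it stood at 312 CPM in WT and 361 CPM in Tet1KO. The fitted change with a term for the naming series was 0.11 (SE 0.26; edgeR adjusted p = 0.980). Cox7c, listed at 1.07 to 2.44 CPM in the T-named WT sets and 19.7 CPM in Young_WT__246, stood at 1.56 and 2.37 CPM in Tet1KO (log2 change -1.13, SE 0.62; edgeR adjusted p = 0.967).

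**Figure D3:**
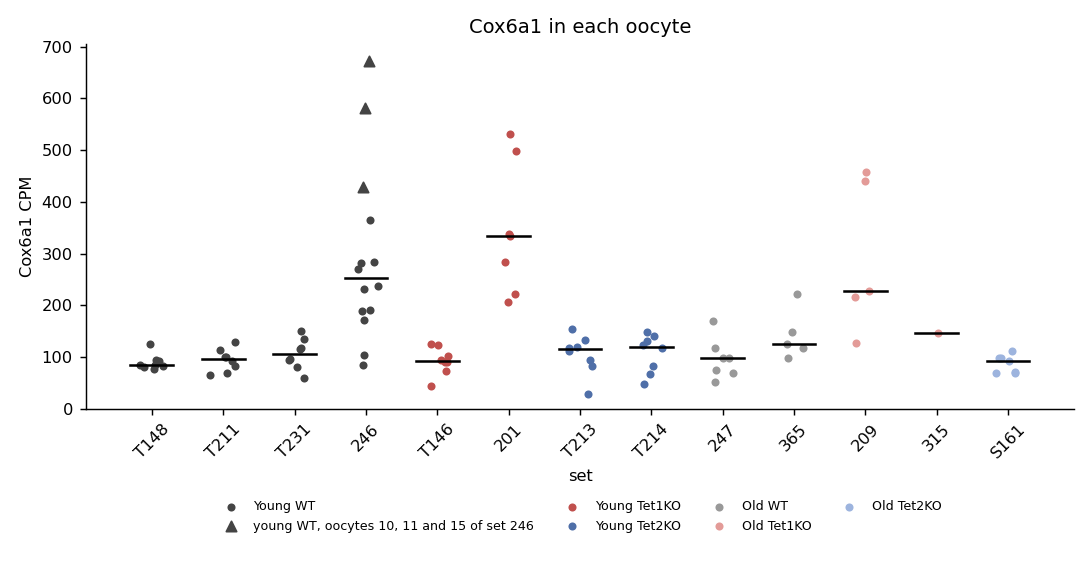
Cox6a1 in CPM (y axis) in each of 94 oocytes, by set (x axis) and coloured by group; bars are set medians and triangles oocytes 10, 11 and 15 of set Young_WT__246. Sets Young_WT__246, Young_Tet1-/-_201 and Old_Tet1-/-_209, with set values of 312, 361 and 303 CPM, lie above the other sets, which stand between 87.1 and 146.2 CPM.

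The direction of the list in young Tet1KO rested on 1 WT set. Without the 3 oocytes 10, 11 and 15 of Young_WT__246 the median was 0.10 and 32 of 75 members were lower (48.9% of all genes), with 0.0209% of all genes called, and without that whole set it was 0.07. Within the T- and S-named sets it was 0.08, with 29 of 73 lower (50.6% of all genes) and 0.0653% of all genes called. Without the 3 oocytes 11 of 34 members of complex I, 1 of 4 of complex II, 2 of 7 of complex III, 6 of 13 of complex IV and 12 of 17 of complex V were lower, so that complex I went from a median of -0.24 to 0.13. The change of Ndufb5 was then -0.68, that of Atp5k -0.30, of Cox6b2 -0.23, of Uqcrq -0.09 and of Cox7c 0.01, while Sdhc stayed at 0.51. No member was called in any of these fits.

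Loss of Tet2 in young oocytes likewise called no member, and 2 of all genes passed (0.0139%). Of 76 members 55 had a log2 change below 0 (50.8% of all genes), with a median of -0.20 against -0.01 for all genes. No member had an unadjusted p under 0.05, against 5.79% of all genes. Complex I had 27 of 35 members lower, complex III 6 of 7, complex IV 9 of 13, complex V 11 of 17 and complex II 2 of 4. In both Tet2KO sets 7 members (Ndufa8, Ndufb9, Ndufb10, Ndufc2, Ndufs5, Ndufv1 and Atp5l) were lower than in all 4 WT sets, against 4.32% of all genes, and none was higher in both, against 9.29%.

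Among these the smallest p belonged to Ndufa8, with a log2 change of -0.78 (SE 0.36; edgeR adjusted p = 0.822), and Atp5l, with -0.81 (SE 0.40; edgeR adjusted p = 0.822). The smallest of the remaining complexes were those of Cox5a (0.33, SE 0.27), Uqcrb (-0.69, SE 0.58) and Sdhb (-0.31, SE 0.38), none with an edgeR adjusted p under 0.873. Ndufb5, at 12.4 and 12.8 CPM, and Cox6a1, at 106 and 106 CPM in Tet2KO, lay within the range of the WT sets. Without the 3 oocytes of Young_WT__246 the median was -0.10, with 45 of 75 members lower (50.9% of all genes) and none called (0.0139% of all genes). Complex I then had 24 of 34 members lower, complex II 2 of 4, complex III 5 of 7, complex IV 6 of 13 and complex V 8 of 17.

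With age in WT oocytes the members had the widest range of fitted changes, and again none passed. In all, 6 genes were called (0.0416%). Of the 76 members 56 were lower (50.1% of all genes), with a median of -0.42 against 0.00 for all genes, and 25 of 35 of complex I, 2 of 4 of complex II, 6 of 7 of complex III, 13 of 13 of complex IV and 10 of 17 of complex V were lower. At an unadjusted p under 0.05, 12 members were lower and 1 higher, against 13% of all genes. Both old sets lay above all young ones for Atp5c1, Atp5d, Atp5g3, Ndufa10 and Sdhd (6.85% of all genes) and below them for Sdhb (6.66%).

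Cox4i1 had the smallest p. It stood at 13.2, 11.8, 13.6 and 37.6 CPM in the young WT sets and at 10.4 and 14.04 CPM in the old ones, so that 1 old set lay below and 1 above all 3 T-named young sets, and both below Young_WT__246. Its log2 change with the series term was -1.70 (SE 0.33; edgeR adjusted p = 0.155). Cox6a1, at 92.5 and 136 CPM in old WT, had a change of -1.57 (SE 0.32; edgeR adjusted p = 0.168) and was below the 312 CPM of Young_WT__246 but not below the other young sets. Cox7c, at 1.396 and 1.36 CPM in old WT, had -3.25 (SE 0.74; edgeR adjusted p = 0.181). Atp5k, at 5.04 and 5.66 CPM, had -1.98 (SE 0.51; edgeR adjusted p = 0.210). Ndufb7, at 0.38 and 0.21 CPM in old WT and 0.28 to 0.49 CPM in the T-named young sets, had -3.25 (SE 0.85; edgeR adjusted p = 0.210), with 4.34 CPM in Young_WT__246. In complex III and II the smallest p belonged to Uqcrq (-1.13, SE 0.54; edgeR adjusted p = 0.411) and Sdha (0.51, SE 0.29; edgeR adjusted p = 0.480). These changes have Young_WT__246 as their numbered young WT set, since both old WT sets are named by number.

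DESeq2 on the same sums called 5 members in the age comparison, Atp5k, Cox6a1, Cox4i1, Cox7c and Ndufa2, all lower in old WT, against 2.27% of all genes. Without a filter on low counts edgeR called 11 of the members, against 2.0% of 33500 genes. Without the young Tet1KO set T146 the log2 changes of Atp5e, Atp5k, Cox7c and Ndufa2 in edgeR were -2.38, -2.54, -3.88 and -2.20. Without Young_Tet1-/-_201 they were -2.42, -2.58, -3.92 and -2.24. Either fit takes its series term from the young WT sets alone, where Young_WT__246 is the only numbered set. Without the 3 oocytes of Young_WT__246 the median of the members was 0.25, with 20 of 75 lower (47.9% of all genes), and no member was called (0.0417% of all genes). The counts by complex turned as well: 9 of 34 members of complex I, 1 of 4 of complex II, 1 of 7 of complex III, 5 of 13 of complex IV and 4 of 17 of complex V were lower, with medians of 0.29 for complex I and 0.10 for complex IV. Then Cox6a1 had a change of -1.30 (SE 0.34; edgeR adjusted p = 0.209), Cox4i1 of -1.11 (SE 0.38; edgeR adjusted p = 0.320), Cox7c of -0.81 (SE 0.56; edgeR adjusted p = 0.617) and Atp5k of -0.20 (SE 0.30; edgeR adjusted p = 0.844). Uqcrq turned to 0.63, and Ndufb7 no longer reached the filter on low counts.

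**Figure D4:**
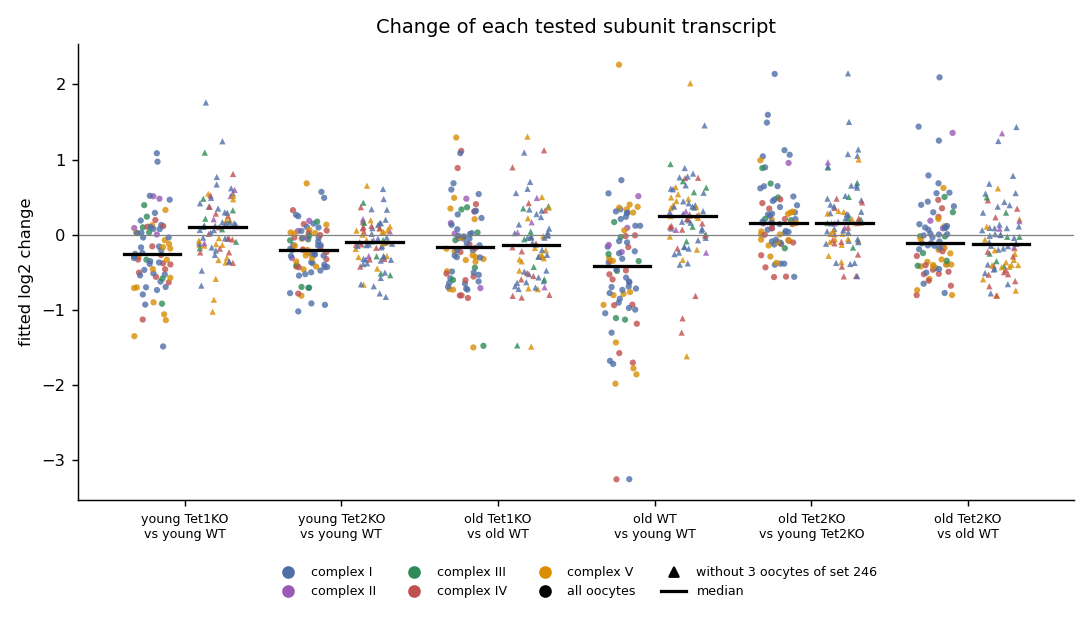
Fitted log2 change of each tested member (y axis) in 6 comparisons of oocyte groups (x axis), coloured by complex, with all oocytes (circles) and without the 3 oocytes of set Young_WT__246 (triangles); bars are medians. In old against young WT the median is -0.42 with all oocytes and 0.25 without the 3, and no member passed the adjusted threshold in either fit.

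The 3 oocytes differed from the rest of their set in most members. They were picked for their ribosomal protein transcripts, so the following is a description. In 49 of the 76 tested members all 3 lay above each of the other 11 oocytes of the set, against 11.9% of all genes tested. This held for 23 of 35 members of complex I, 1 of 4 of complex II, 5 of 7 of complex III, 12 of 13 of complex IV and 8 of 17 of complex V. Cox6b1 stood at 64.6 to 90.5 CPM in the 3 and at 6.66 to 27.1 CPM in the 11, and Cox6b2 at 371 to 502 CPM against 54.4 to 231.3 CPM. Oocyte 11 had 132 CPM of Cox7c and 164 CPM of Atp5k, where the highest of the 91 oocytes outside the 3 had 6.61 and 19.05 CPM. Oocytes 10 and 15 had 4.78 and 6.14 CPM of Cox7c, not above those 91, but 26.96 and 32.98 CPM of Atp5k, above them. Sdha went the other way, with 95.5, 72.2 and 64.2 CPM in oocytes 10, 11 and 15, below the 116 CPM of the lowest of the 11, a pattern shown by 11.1% of all genes. Uqcrc2 overlapped, at 325 to 482 CPM against 381 to 497 CPM. The 3 carried 22514 to 26431 CPM of the oocyte markers, at most 19.1 CPM of the cumulus and granulosa markers (of which Amh, Amhr2, Foxl2, Fshr, Inha, Ptx3 and Tnfaip6 were at 0) and no globin count. Their part in the fitted changes was measured only by leaving them out.

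Loss of Tet1 in old oocytes called no member, where 5 genes passed in all (0.0347%). Of the 76 members 50 were lower (51.0% of all genes), with a median of -0.16 against -0.01 for all genes, and 2 lower and 3 higher members had an unadjusted p under 0.05, against 12.4% of all genes. Without set Old_WT_365 the median was 0.12. Both Tet1KO sets were below both WT sets in 19 members (29.1% of all genes) and above them in 3 (12.3%).

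The 3 above were Cox6a1, Atp5o and Ndufv2. Cox6a1 stood at 92.5 and 136 CPM in the old WT sets and at 303 and 146.2 CPM in the Tet1KO sets. In the 5 oocytes of Old_Tet1-/-_209 it ran from 127 to 459 CPM with a median of 228 CPM, overlapping the 97.4 to 222 CPM of the 5 oocytes of Old_WT_365. The log2 change was 1.11 (SE 0.29; edgeR adjusted p = 0.214), and DESeq2 called it alone of the members (2.08% of all genes). Without a filter on low counts edgeR called Cox6a1, Uqcr11 and Atp5o (1.68% of all genes). Atp5c1 (-0.72, SE 0.27; edgeR adjusted p = 0.324), Sdhd (-0.71, SE 0.27; edgeR adjusted p = 0.339), Ndufs8 (1.08, SE 0.49; edgeR adjusted p = 0.397) and Uqcr11 (-1.48, SE 1.02; edgeR adjusted p = 0.558) had the smallest p of the other complexes. Sdhd stood at 18.1 and 16.2 CPM in old WT and at 11.2 and 7.51 CPM in old Tet1KO, without overlap.

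The difference between the effects of Tet1KO in old and in young oocytes was tested as an interaction. No gene passed (0.0% of 14418), and 841 (5.83%) had an unadjusted p under 0.05. The members were lower in 34 of 76 (49.5% of all genes), with a median of 0.13, and 3 lower and 5 higher members had an unadjusted p under 0.05. Without the 3 oocytes of Young_WT__246 the direction turned, with 47 of 75 lower (49% of all genes), a median of -0.19 and none called (0.0%). DESeq2 called 17 genes (0.118%), none of them a member, and edgeR without a filter on low counts called 2 members (0.594% of all genes). Sdhd had the smallest p, with a difference of -1.19 on the log2 scale (SE 0.36; edgeR adjusted p = 0.814). Its values were higher in both young Tet1KO sets (15.4 and 22.2 CPM) than in all young WT sets (9.82 to 14.6 CPM), the reverse of the old sets. Cox4i1 (1.16, SE 0.41), Cox6a1 (1.01, SE 0.39), Atp5c1 (-0.85, SE 0.35), Ndufa1 (-1.69, SE 0.75) and Uqcr11 (-1.87, SE 1.30) did not pass either (edgeR adjusted p of 0.814 or more). The comparisons share the WT sets of each age.

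The old Tet2KO oocytes came from 1 set, S161, which was assumed to vary like the other groups. Against young Tet2KO 24 of 76 members were lower (52.4% of all genes), the median was 0.15 against -0.02 for all genes, and no member and 1 gene passed (0.00694%). At an unadjusted p under 0.05, 2 members were higher, against 2.65% of all genes. Complex I had 27 of 35 members higher, complex II 4 of 4, complex III 6 of 7, complex IV 5 of 13 and complex V 10 of 17. Ndufb9 had the smallest p (0.90, SE 0.38; edgeR adjusted p = 1.0), and Sdhb, Uqcrfs1, Atp5j and Cox6b2 those of the other complexes, with log2 changes of 0.95 (SE 0.49), 0.68 (SE 0.35), 0.99 (SE 0.60) and -0.56 (SE 0.41). Sdhb stood at 4.13 CPM in S161, its highest set, and at 2.77 and 1.52 CPM in young Tet2KO. Without oocyte 6 of S161, the one with macrophage transcripts, the median was 0.08, and the changes of Sdhb and Atp5j were 0.50 and 0.29.

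Against old WT, S161 had 45 of 76 members lower (50.9% of all genes), a median of -0.11 against -0.01, and no member among the 2 genes called (0.0139%). At an unadjusted p under 0.05, 1 member was higher, against 1.85% of all genes. Sdhb had the smallest p (1.35, SE 0.55; edgeR adjusted p = 1.0), followed within the other complexes by Atp5c1 (-0.59, SE 0.35), Cox5b (-0.52, SE 0.35), Ndufa12 (1.25, SE 0.86) and Uqcrfs1 (0.50, SE 0.37). S161 is S-named and both old WT sets are named by number, so the genotype and the naming series cannot be told apart here. The median was 0.15 without Old_WT_365, and the change of Sdhb was 0.89 without oocyte 6 of S161.

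Genes that assemble or serve the chain did not share 1 direction. No gene of the lists of assembly factors, electron carriers, regulators of mitochondrial biogenesis or mitochondrially encoded subunits passed in the main test of any of the 7 comparisons. The 13 mitochondrially encoded subunits were all lower in young Tet1KO (range -0.75 to -0.27, median -0.42), in old Tet1KO (-0.71 to -0.31, median -0.58) and in old against young Tet2KO (-0.90 to -0.45, median -0.65). In the same comparisons the nuclear medians were -0.26, -0.16 and 0.15. The nuclear median turned to 0.07 in young Tet1KO without Young_WT__246, and to 0.12 in old Tet1KO without Old_WT_365. The fitted changes of the mitochondrially encoded subunits are given with all sets only. Their summed CPM was 11164 in T146, within the 9939 to 14777 of the young WT sets, and 5421 in Young_Tet1-/-_201, below them. The sums were 8054 and 5027 CPM in the old Tet1KO sets against 11913 and 9938 CPM in old WT. In S161 the sum was 10245 CPM, against 16875 and 14753 CPM in young Tet2KO. In the other comparisons 2 of 13 were lower in young Tet2KO (median 0.23), 4 of 13 in old against young WT (median 0.09), 6 of 13 in old Tet2KO against old WT (median 0.09) and 9 of 13 in the interaction (median -0.15). The shares of all genes lower are those given above for each comparison, between 49.5% and 52.4%. In young Tet1KO 6 of 11 complex I assembly factors, 1 of 4 of complex II, 3 of 5 of complex III, 12 of 16 of complex IV and 3 of 3 of complex V were lower, as were 6 of 13 electron carrier genes and 10 of 16 regulators. In old against young WT the corresponding counts were 5 of 11, 3 of 4, 4 of 5, 8 of 16, 1 of 3, 4 of 13 and 9 of 16.

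In germ cells at E13.5 the Tet2KO library was set against the WT library with no replicate, as log2((FPKM + 1)/(FPKM + 1)). Gonadal soma markers summed to 98.7 FPKM in WT and 40.3 FPKM in Tet2KO (12 of 13 lower), and 4 globin genes to 1692 and 507 FPKM. The 10 germ cell markers summed to 1884 and 2019 FPKM, with 1 of 10 lower, Ddx4, at 128 and 93.7 FPKM. The part of this shift in the members' values was not tested, and less RNA per cell cannot be told apart from fewer cells of a type. Tet2 itself stood at 3.19 FPKM in WT and 2.96 FPKM in Tet2KO. Of 83 members 82 reached 1 FPKM in either library.

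No member was past 2-fold, where 1.58% of 12577 genes were at least 2-fold lower and 0.668% at least 2-fold higher. The members were lower in 61 of 82, against 59.2% of all genes, with a median of -0.12 against -0.06. Complex I accounted for most of them: 34 of 37 members were lower, with a median of -0.15 and a range of -0.38 to 0.10. The others were lower in 3 of 4 of complex II (median -0.15), 7 of 8 of complex III (median -0.09), 8 of 16 of complex IV (median -0.02) and 9 of 17 of complex V (median -0.02). Those of complex V include Atp5sl (33.1 FPKM in WT, 30.8 FPKM in Tet2KO), counted there by its symbol. That gene is now named Dmac2 and is not among the oocyte members. Of the other lists, 7 of 14 complex I assembly factors, 9 of 20 of complex IV and 3 of 16 regulators of mitochondrial biogenesis were lower.

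Ndufa12, an accessory subunit of complex I, had the largest ratio there, with 106 FPKM in WT and 81.9 FPKM in Tet2KO (log2 ratio -0.38). Sdhc led complex II, with 114 and 88.7 FPKM (-0.36), Uqcr11 complex III, with 250 and 219 FPKM (-0.19), and Atp5s complex V, with 5.34 and 4.42 FPKM (-0.23). In complex IV the low isoform Cox4i2 was listed at 1.34 and 0.30 FPKM (-0.85), and Cox7b, a small nuclear subunit, had the highest ratio, with 95.7 and 123 FPKM (0.36). Ndufb5 stood at 77.1 and 65.5 FPKM (-0.23), Cox6a1 at 556 and 563 FPKM (0.02), Cox7c at 1175 and 1081 FPKM (-0.12) and Atp5k at 107 and 117 FPKM (0.12). In the authors' deposited table the log2 ratio of Cox4i2 was -2.16, with a false discovery rate of 0.0101 that rests on the reads of these 2 libraries. The same deposited table gives Ndufb5 -0.24 and Cox7b 0.37. Their false discovery rates there, on the same 2 libraries, were 0.000148 and 3.3e-17, smaller than that of Cox4i2.

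**Figure D5:**
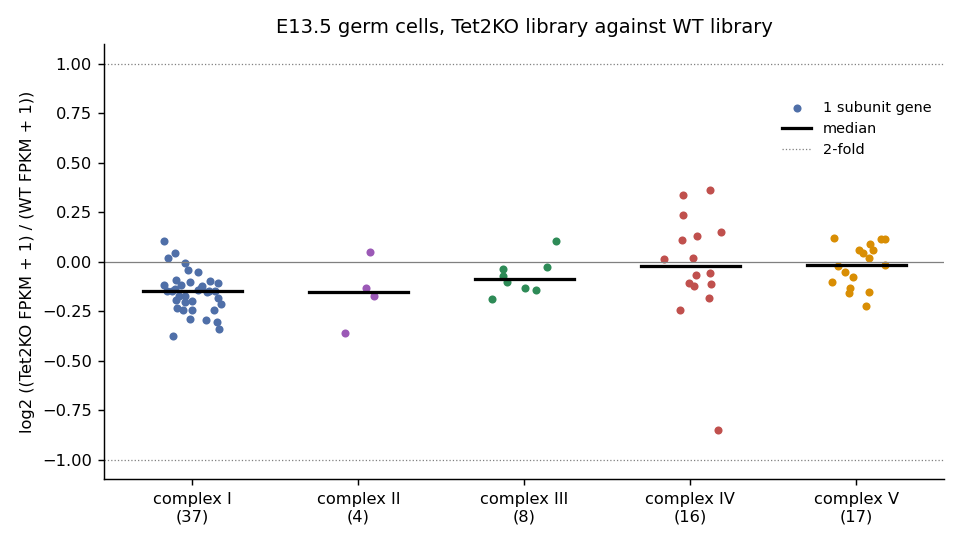
Log2 ratio of Tet2KO to WT FPKM, each with 1 added (y axis), of 82 members in the 2 germ cell libraries, by complex (x axis, number of members in brackets); bars are medians and dotted lines mark 2-fold. Of complex I 34 of 37 points lie below 0 and none of the 82 passes 2-fold.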

How the data were processed

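Raw counts per gene and oocyte were deposited by the authors as tables made with featureCounts 1.6.2 on GENCODE M17 genes with multi-mapping and overlapping reads counted, paired reads as fragments, no strand and a mapping quality of at least 30, per the file headers. HISAT2, SAMtools and mm10 are named in the submitters' processing notes, with no versions. The germ cell table was deposited by the authors with FPKM values, a log2 ratio and a false discovery rate (a q-value), per the file headers; its depth is unknown, since at most 39.8% of short genes lay within 0.1 of a whole multiple of one step. Symbols came from GENCODE M21; 95 identifiers had none.

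Labelled samples were 135. Of 133 oocytes, 39 with contradictory labels and 39 count columns matched to no label were not used. Counts were summed by set and fitted with edgeR 4.0.16 (TMM, quasi-likelihood F test, R 4.3.3) on all 13 sets, with a mean for each group and the naming series as a covariate (T- or S-named against numbered; left out for old Tet2KO against old WT), on genes of at least 1 CPM in 2 sets. The fit left 6 residual degrees of freedom and a biological coefficient of variation of 0.32. Genes were named by a rule: Ndufb5, Cox6a1, Cox7c and Atp5k always, the member with the smallest p in each complex where none was called, the highest and lowest levels per complex, and in germ cells the largest ratio per complex. DESeq2 1.42.0, limma 3.58.1 (prior count 2), size factors, no filter, leaving out sets or oocytes, and for germ cells a pseudocount of 0.1 and a minimum of 10 FPKM were alternatives. Close copies were found with blastn 2.17.0. The fit was tested on simulated data. Members and lists were chosen with earlier results of these data known.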

Additional observations from a re-analysis of the deposited data

Results flagged for a closer look

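In the 4 young WT sets, 1 set stood apart from the other 3 for several members by Dixon's 95% criterion, which chance meets in about 1 in 20 groups; 43 groups of values were looked at and 13 met it, most of them through the same set. Young_WT__246 was the highest for Cox6a1 (312 CPM), Cox6b2 (171 CPM), Cox4i1 (37.6 CPM), Cox7c (19.7 CPM), Atp5k (30.1 CPM), Atp5l (29.4 CPM), Atp5j (4.44 CPM), Ndufb7 (4.34 CPM), Uqcrb (9.39 CPM) and Uqcrq (21.1 CPM). It was also the highest for the summed complex IV members (1267 CPM) and for all 88 members (3767 CPM). Ndufb5 was instead highest in T231, at 16.6 CPM.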

How the results depend on the processing

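No paired analysis was possible because the numbers in the titles only count the oocytes of a set. With each set left out in turn the median log2 change of the members ran from -0.58 to 0.073 in young Tet1KO, from -0.30 to -0.10 in young Tet2KO, from -0.36 to 0.12 in old Tet1KO, from -0.74 to 0.31 in old against young WT, from 0.07 to 0.22 in old against young Tet2KO, from -0.25 to 0.15 in old Tet2KO against old WT and from -0.22 to 0.57 for the interaction; between 0 and 4 members were called in the age comparison. Without the 3 oocytes of Young_WT__246 the median was 0.10 in young Tet1KO and 0.25 with age, within the T- and S-named sets it was 0.078 in young Tet1KO, and by limma it was 0.028 with age. Without a filter 3 members were called in old Tet1KO, 11 with age and 2 for the interaction, and DESeq2 called 1 and 5 in the first and second of these; without a filter 33500 genes were tested. For Uqcrq, old WT against young WT, the change turned to 0.23 by limma, 0.63 without the 3 oocytes and 0.67 without Young_WT__246; with each set left out it ran from -1.71 to 0.67. For Sdhb, young Tet2KO against young WT, it ran from -0.80 to 0.049, above 0 without T214, and for Uqcr11, old Tet1KO against old WT, from -3.32 to 0.24, above 0 without Old_WT_365. In all 27 of 35 named values kept their sign and their side of the threshold. In germ cells 1 member was past 2-fold with a pseudocount of 0.1 and 1 by the authors' deposited ratio. The SD of log2 levels was 2.12 over all members and 1.91 in complex I with the germ cell table's lengths. Without members that have close copies it was 2.53 over all, 2.16 in complex I, 2.30 in complex III and 2.85 in complex V. Leaving out a young WT set gave 2.25 to 2.36 over all, 2.02 to 2.18 in complex I and 1.94 to 2.23 in complex IV. The use of the germ cell lengths, the exclusion of close copies and the exclusion of oocyte 6 of S161 were chosen after seeing the data. The cause of these differences was not tested.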
